A study of Canis lupus familiaris with 9 samples.

Results

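The genes described are the protein tyrosine phosphatases and dual-specificity phosphatases, chosen by symbol alone: PTPN or DUSP followed by a number, or PTPR followed by a letter and an optional digit. The rule found 56 of 28008 features, of which 19 encode receptor-type phosphatases (PTPR), 16 non-receptor phosphatases (PTPN) and 21 dual-specificity phosphatases (DUSP). Their RNA was measured by sequencing in 9 dog samples. The controls (n = 3) were sorted CD4+ T cells of healthy, unneutered female hounds aged 1 year. The lymphomas were CD4+ peripheral T cell lymphomas (PTCL), cancers of mature T cells, in 2 sets of 3. Boxer lymphomas 1 and 3 came from castrated males aged 6 years and Boxer lymphoma 2 from a spayed female aged 8. Other-breed lymphomas 1 to 3 came from a spayed Cavalier King Charles Spaniel aged 3, a spayed Rhodesian Ridgeback aged 4 and a castrated Collie aged 11. Breed, age and neutering therefore differ between controls and lymphomas throughout, and no sorting or tissue is named for the lymphomas. The labels do not state that each sample is a separate animal, and the p-values here thus speak only of how far samples differ.

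Tyrosine phosphatases remove phosphate from tyrosines and so oppose tyrosine kinases. In T cells the receptor phosphatase CD45, the product of PTPRC, keeps the kinase LCK ready for signalling, while PTPN22, PTPN2 and PTPN6 dampen signals from the antigen receptor and cytokine receptors. Dual-specificity phosphatases act on threonine as well as tyrosine. The typical ones are MAP kinase phosphatases, which switch off ERK, JNK and p38, and several of their genes are themselves switched on by the pathway they restrain.

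Libraries held 11710623 to 18488468 reads. Of 8 T cell markers 6 were found under their symbols, with a summed level of 54768 to 55488 normalised reads in controls and 39294 to 73226 in lymphomas. The lymphoma sums lay on both sides of the controls, and single markers moved in both directions. CD5 was at 10272 to 10649 in controls and 265 to 4320 in lymphomas, lowest in Boxer lymphoma 2. CD3E was at 19717 to 21357 in controls and 13794 to 22222 in lymphomas. CD3G was at 9845 to 10791 in controls and 12348 to 16954 in lymphomas. CD4 itself was not analysed here. Lymphomas also carried genes of other cells. Of 17 fibroblast and stroma markers 16 were found and 6 were higher in every lymphoma than in every control. Their sum was 2907 to 3813 in controls, 5712 to 24074 in the Boxer lymphomas and other-breed lymphoma 3, and 3598 and 1798 in other-breed lymphomas 1 and 2. Most of the control sum came from THY1 (2304 to 2810) and COL5A1 (422 to 1197). Their means were higher in controls than in lymphomas (2532 and 1307 for THY1, 857 and 639 for COL5A1). In other-breed lymphomas 1 and 2 THY1 was at 3322 and 144, and COL5A1 at 37.7 and 1150. POSTN, LUM and MMP2 had no read in any control, and LUM had none in other-breed lymphoma 1 either. Of 14 endothelial markers 12 were found and 3 were higher in every lymphoma, with sums of 670 to 1032 in controls and 458 to 8490 in lymphomas. KDR gave the largest part of the control sums, at 626, 298 and 262. It was at 111, 173 and 1128 in Boxer lymphomas and at 49.4, 27.6 and 1156 in other-breed lymphomas. Of 16 macrophage markers 15 were found and 11 were higher in every lymphoma, with sums of 321 to 437 and 1316 to 21662. Neutrophil sums (17.7 to 33.3 against 126 to 884) and dendritic cell sums (130 to 183 against 285 to 1830) were also higher in every lymphoma. Single libraries stood apart in genes of other lymphocytes. Other-breed lymphoma 1 held 1089 reads of CD8A (controls 13.9 to 33.9) and 5123 of the B cell gene MS4A1 (209 to 366), and Boxer lymphoma 2 held 6050 of the NK cell gene KLRB1 (13.0 to 61.4). The part of these cells in the results below was not tested. In such bulk samples, fewer cells of a type and less RNA per cell cannot be told apart.

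Values are normalised read counts, that is, reads divided by a size factor for each library. They are not divided by gene length, so levels are compared between samples and not between genes. Genes with at least 10 normalised reads in at least 3 libraries were tested with limma on log2(value + 1), and a gene was called at an adjusted p under 0.05 over all features. Of the 56 phosphatase genes 46 passed the filter. DUSP8, DUSP18, PTPN3, PTPRG and PTPRM passed it through the lymphomas alone and PTPRR through the controls alone.

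Between lymphomas and controls, 9 of the 46 genes were called higher and 7 lower. These shares, 19.6% and 15.2%, lay near those over all 15977 features tested, of which 19.4% were called higher and 15.7% lower. In either direction it was 34.8% of the phosphatase genes and 35.0% of all features, and groups that did not overlap were found for 15 of 46 (32.6%) and for 35.8% of all features. The family as a whole was thus called about as often as other genes, and its members moved in opposite directions. The higher genes were the receptors PTPRD, PTPRN2, PTPRM, PTPRG and PTPRU, the non-receptor PTPN11 and the dual-specificity genes DUSP3, DUSP8 and DUSP18. The lower genes were PTPRR, PTPRN, PTPN21, PTPN4, DUSP1, DUSP2 and DUSP16. DUSP8, DUSP18, PTPRG and PTPRM among the higher genes, and PTPRR among the lower, passed the filter only through the group where they were high. The counts given here include them. By class, 5 of 15 receptors tested rose and 2 fell, 1 of 14 non-receptor genes rose and 2 fell, and 3 of 17 dual-specificity genes rose and 3 fell. The median log2 fold change was 0.25 over the 46 genes and 0.05 over all features. It was 2.11 for receptors, 0.02 for non-receptor genes and 0.22 for dual-specificity genes. The receptor median was the value of PTPRO, which did not pass (limma adjusted p = 0.124). These medians also include genes that passed the filter through a single group. Among receptors they are PTPRG and PTPRM (lymphomas) and PTPRR (controls), and in the other classes PTPN3, DUSP8 and DUSP18 (lymphomas). The filter thus favoured the direction of these values.

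**Figure D1:**
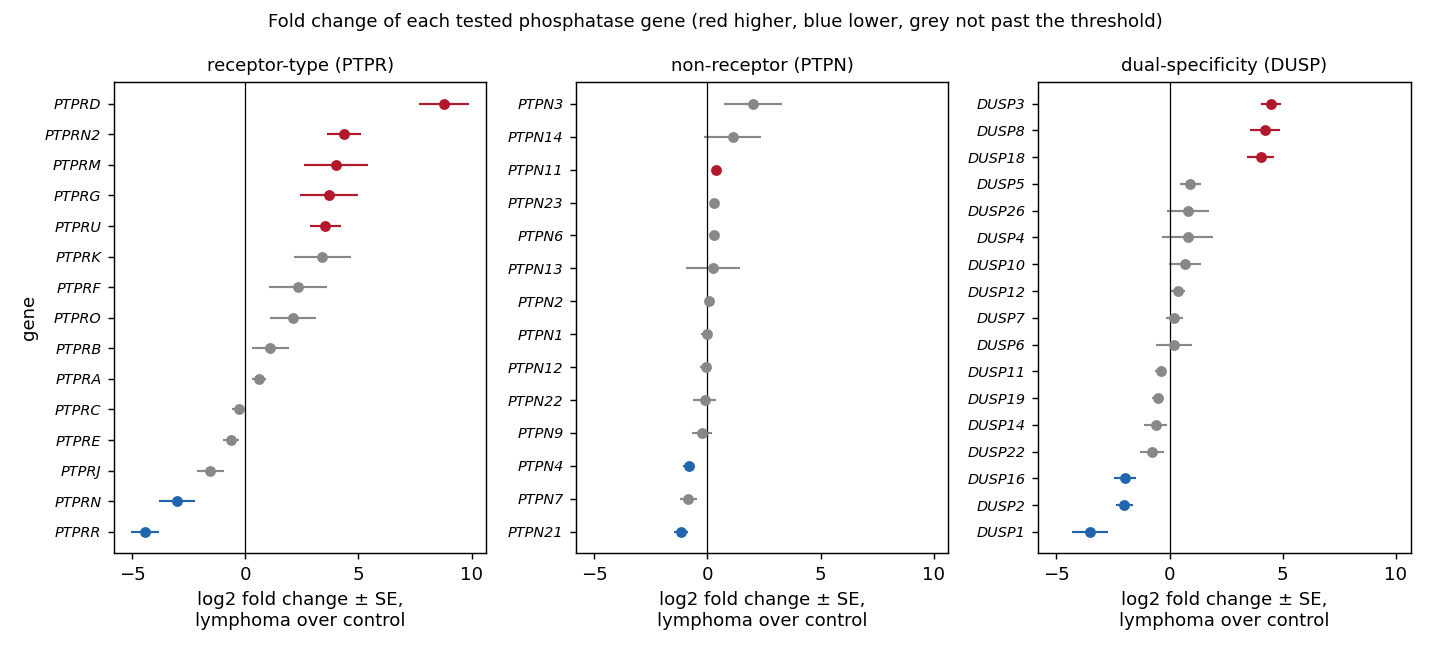
Log2 fold change of each of the 46 tested genes, lymphomas over controls, with bars of 1 SE, in separate panels for receptor-type, non-receptor and dual-specificity phosphatases. Receptors span from -4.42 (PTPRR) to 8.78 (PTPRD), while most non-receptor genes lie close to 0. DUSP8 had no read in controls, so its fitted value depends on the pseudocount.

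The calls were not equally firm. The calls of DUSP1, DUSP2, DUSP3, DUSP8, DUSP18, PTPRD, PTPRN2 and PTPRU held in all 9 fits that left out 1 library and in every other alternative that could be fitted. PTPRR held in the 6 fits without 1 library that could test it, since it drops below the filter when any control is removed. DUSP8 could be fitted in 9 of the 12 other alternatives. DUSP8 and DUSP18 had passed the filter through the lymphomas alone and PTPRR through the controls alone. The filter itself thus favoured the direction of these calls. Without control 1, 2 or 3 the calls over 45 testable genes fell to 9, 9 and 10, as calls over all features fell to 21.8%, 19.5% and 21.1%. By edgeR on the recovered reads, 10 genes were called higher and 7 lower, against 19.4% and 14.3% of all features. DESeq2 called 21 of 46 genes and 42.2% of all features. Against the same controls, Boxer lymphomas alone gave 22 calls of 46 (39.3% of all features) and other-breed lymphomas alone 11 of 40 (29.7%).

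**Figure D2:**
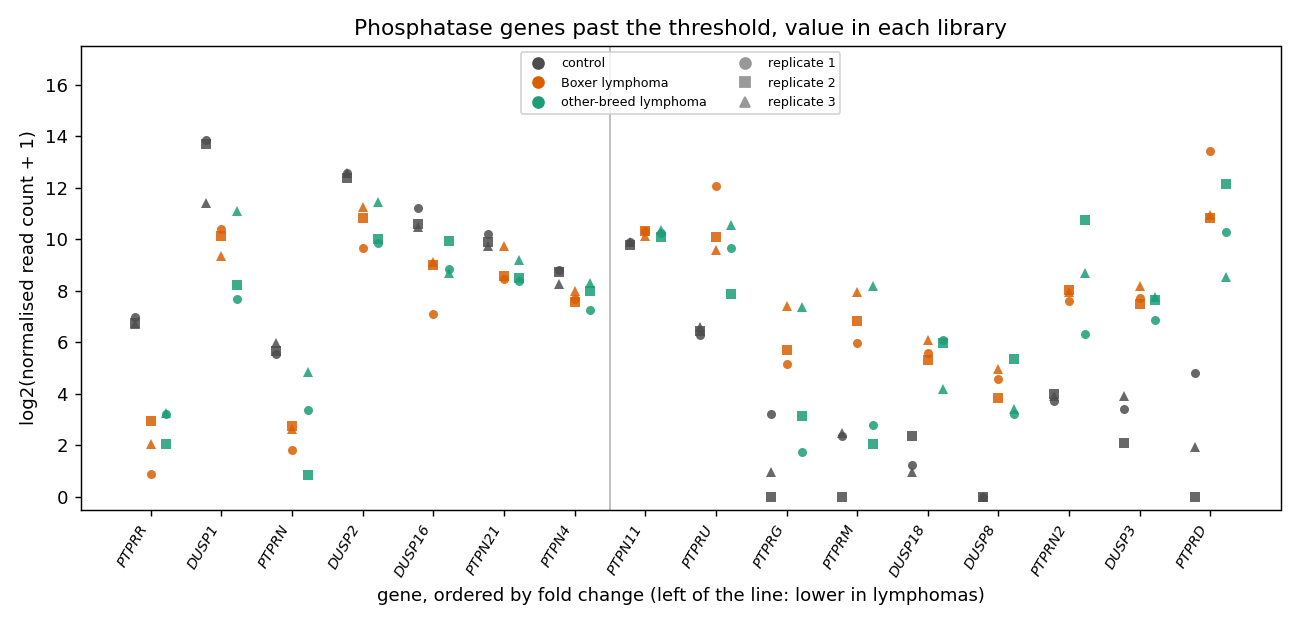
Level of the 16 called genes in each of the 9 libraries, as log2(normalised read count + 1). Colours give the group and symbols the replicate number. PTPRD, DUSP3 and DUSP8 lie above every control in all 6 lymphomas, while PTPRG and PTPRM in other-breed lymphomas 1 and 2 lie near the controls.

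Among receptors, the largest change was that of PTPRD (ENSCAFG00000001460), which encodes a receptor of the LAR type that is best known from nerve synapses. It was at 27.3, 0 and 2.78 normalised reads in controls 1 to 3. It reached 10974, 1794 and 1963 in the Boxer lymphomas and 1254, 4504 and 373 in the other-breed lymphomas. All 6 lymphomas therefore lay above all controls, yet they differed among themselves by 29.5-fold. The log2 fold change was 8.78 ± 1.12 (SE, limma adjusted p = 3.97e-04). It was 9.48 for Boxer lymphomas alone and 8.08 for other-breed lymphomas alone against the same controls. The stromal marker sum was 7216 in Boxer lymphoma 1, the highest for PTPRD, and 17486 in other-breed lymphoma 3, the lowest for it among lymphomas. The sums were 3598, of which THY1 gave 3322, and 1798 in other-breed lymphomas 1 and 2. The part of stromal cells in the PTPRD level was not tested. In the RefSeq table described below PTPRD overlaps several genes with no symbol of their own, and reads shared with these were not examined.

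PTPRU (ENSCAFG00000011524), a receptor of the MAM type, as are PTPRM and PTPRK, was at 76.4, 85 and 95.4 reads in controls. The Boxer lymphomas held 4292, 1092 and 773 reads and the other-breed lymphomas 806, 236 and 1499. The groups did not overlap, and Boxer lymphoma 1 had the highest level of both PTPRU and PTPRD. PTPRU rose by 3.54 ± 0.68 (limma adjusted p = 0.00354). It was 4.15 without other-breed lymphomas 1 and 2 (adjusted p = 5.4e-04) and 2.78 among female dogs alone (adjusted p = 0.01).

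PTPRN and PTPRN2 encode a pair of related receptors of secretory granules in neuroendocrine cells, and their levels moved in opposite directions. PTPRN2 (ENSCAFG00000032520) was at 12.3, 14.9 and 13.9 reads in controls. It was at 194, 262 and 249 in Boxer lymphomas and at 78.9, 1730 and 410 in other-breed lymphomas. The controls were tight and every lymphoma lay above them, with other-breed lymphoma 2 the highest. PTPRN2 rose by 4.36 ± 0.75 (limma adjusted p = 0.00205).

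PTPRN (ENSCAFG00000015244) was at 45.0, 49.5 and 61.1 reads in controls and at 0.789 to 27.6 in lymphomas, with a median of 5.45. Other-breed lymphoma 3 was the highest lymphoma and still below every control. PTPRN thus fell by 3.00 ± 0.80 as a log2 change (limma adjusted p = 0.0158). That call ended without control 1, 2 or 3 (adjusted p = 0.0538 to 0.0695) and with the other-breed lymphomas alone (0.0768).

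PTPRR (ENSCAFG00000023742) encodes a phosphatase that binds and inactivates ERK and p38. It was at 124, 107 and 105 reads in controls. In Boxer lymphomas it was at 0.85, 6.64 and 3.12 and in other-breed lymphomas at 8.24, 3.15 and 8.49. All 6 lymphomas lay far below the controls and under 10 normalised reads (30 reads recovered over the 6 libraries, against 334 over 3 controls). The change was -4.42 ± 0.62 (limma adjusted p = 6.81e-04).

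A further set of receptors was high in 4 or 5 lymphomas and near or below the control level in the others. PTPRM (ENSCAFG00000018639), an adhesion receptor of endothelium and epithelium, was at 4.09, 0 and 4.63 reads in controls. Boxer lymphomas held 61.2, 112 and 245 reads and other-breed lymphoma 3 held 290, but other-breed lymphomas 1 and 2 held 5.89 and 3.15. PTPRG (ENSCAFG00000007152), a receptor with a carbonic anhydrase-like domain, was at 8.19, 0 and 0.926 in controls. It had the same division, at 34.8, 50.2 and 167 in Boxer lymphomas, 162 in other-breed lymphoma 3, and 2.35 and 7.89 in other-breed lymphomas 1 and 2.

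Both genes passed the threshold over all 6 lymphomas, PTPRM at 4.01 ± 1.41 (limma adjusted p = 0.0485) and PTPRG at 3.70 ± 1.29 (0.0475). The calls ended in 7 of 9 fits that left out 1 library: any control, any Boxer lymphoma or other-breed lymphoma 3. The highest adjusted p was 0.189 for PTPRM and 0.184 for PTPRG, both without control 2. Both calls also ended with a pseudocount of 5 (0.0645 for PTPRM and 0.0697 for PTPRG), without a filter (0.0622 and 0.0627) and with a filter at 50 (0.0514 and 0.0563). By edgeR PTPRM passed (0.0353) and PTPRG did not (0.0519), and PTPRG did not with the replicate number as a block (0.0521). The stromal and endothelial marker sums were lower in the same pair of lymphomas than in the remaining 4. For endothelium they were 1288 and 458 in that pair, against 2103 to 8490 in the remaining 4. VWF, the gene of von Willebrand factor, was at 4.71 and 14.2 against 673 to 2927. ENG and EGFL7 did not follow this in other-breed lymphoma 1, where they made up most of the sum. They were at 753 and 354 there, against 225 to 778 and 226 to 487 in the remaining 4. In controls they were at 127 to 163 and 158 to 203. The part of stromal or endothelial cells in these results was not tested.

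PTPRK, a MAM type receptor like PTPRM, and PTPRF, a LAR type receptor like PTPRD, were low in other-breed lymphoma 1 alone. PTPRK was at 27.3, 34.7 and 15.7 reads in controls, at 473, 920 and 440 in Boxer lymphomas, and at 7.06, 415 and 637 in other-breed lymphomas. PTPRF was at 24.6, 16.5 and 19.4 in controls, at 365, 196 and 234 in Boxer lymphomas, and at 2.35, 248 and 96.6 in other-breed lymphomas. Other-breed lymphoma 1 was thus below every control for both genes, and the other 5 lymphomas were above every control. Over all lymphomas neither gene passed by limma (PTPRK 3.41 ± 1.27, adjusted p = 0.0587; PTPRF 2.34 ± 1.27, adjusted p = 0.172). Without other-breed lymphoma 1 they passed, at 4.43 (adjusted p = 7.4e-05) and 3.33 (adjusted p = 6.69e-04). By edgeR with all libraries they passed as well (0.0169 and 0.0421), and PTPRK also passed by limma with a pseudocount of 5 (0.048). The stromal sums were 3598 in other-breed lymphoma 1 and 1798 to 24074 in the other 5. THY1, which was at 2304 to 2810 in the sorted controls, gave 3322 of the 3598. Every other stromal marker found was at 54.1 or less in other-breed lymphoma 1. The part of stromal cells in these levels was not tested.

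**Figure D3:**
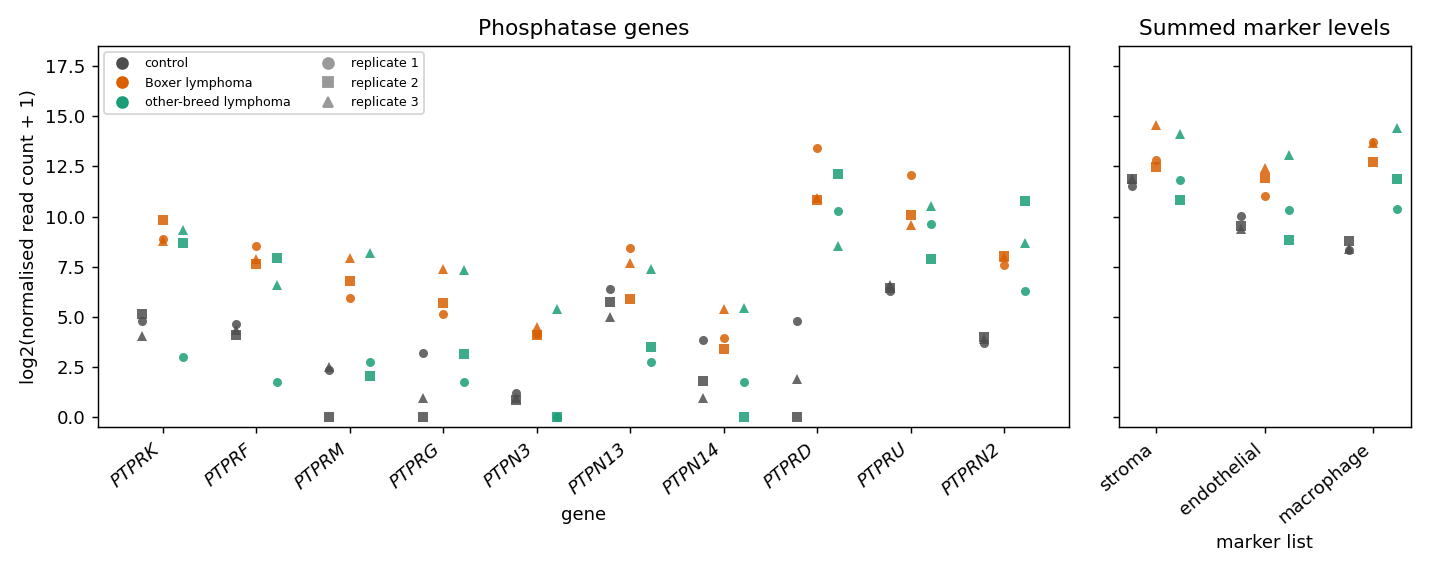
Left, level of 10 phosphatase genes in each library. Right, summed level of the fibroblast and stroma, endothelial, and macrophage markers, all as log2(normalised read count + 1). Other-breed lymphomas 1 and 2 (green circle and square) are low for PTPRM, PTPRG, PTPN3, PTPN13 and PTPN14, and other-breed lymphoma 1 alone is low for PTPRK and PTPRF, while PTPRD, PTPRU and PTPRN2 are above the controls in all lymphomas.

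PTPRB encodes the endothelial receptor VE-PTP. It was at 1200, 765 and 642 reads in sorted control T cells, where the endothelial cadherin CDH5 was at 0, 0.826 and 0. Boxer lymphomas held 336, 4550 and 2485 reads and other-breed lymphomas 4509, 593 and 3403. The summed endothelial markers in the same order were 2103, 3870 and 5577, and 1288, 458 and 8490. CDH5 was at 98.5, 185 and 372, and at 1.18, 6.31 and 495. The 3 lymphomas with the highest endothelial sums were among the 4 with the most PTPRB, and the other one of these 4, other-breed lymphoma 1, had the lowest CDH5 of the lymphomas. The part of endothelial cells in the PTPRB level was not tested. The change over all lymphomas did not pass (1.11 ± 0.81, limma adjusted p = 0.306).

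Neither PTPRC nor PTPRJ, the receptors best known in T cells, passed over all lymphomas. PTPRC (CD45) was at 48742 to 57212 reads in controls and at 27922 to 64610 in lymphomas, and the groups overlapped (-0.29 ± 0.27, limma adjusted p = 0.432). PTPRJ, which encodes CD148 and acts on Src family kinases, was at 1133, 1008 and 873 in controls. It was at 405, 253 and 264 in Boxer lymphomas and at 90.6, 1001 and 655 in other-breed lymphomas, so that 5 of 6 lymphomas lay below the controls. Its change did not pass (-1.54 ± 0.61, limma adjusted p = 0.0721), and it passed without other-breed lymphoma 2 (0.0222) and with Boxer lymphomas alone (-1.73, 0.00155).

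PTPRA and PTPRE encode closely related receptors with short outer parts that act on Src family kinases. PTPRA was at 783 to 850 reads in controls and above these in every lymphoma, at 900 to 2528, and did not pass (0.60 ± 0.31, limma adjusted p = 0.154). PTPRE was at 1267 to 1546 in controls. It was at 742, 832 and 729 in Boxer lymphomas, all below the controls, but at 1452, 431 and 1598 in other-breed lymphomas (-0.63 ± 0.37, adjusted p = 0.196). With Boxer lymphomas alone, PTPRA (0.96, adjusted p = 0.0488) and PTPRE (-0.83, adjusted p = 0.00666) passed in opposite directions. Of the remaining receptors, PTPRO had up to 26.5 reads and did not pass (2.11 ± 1.00, adjusted p = 0.124). It passed without control 1 (3.30, adjusted p = 0.0401). PTPRH, PTPRQ, PTPRT and PTPRZ1 were below the filter, and PTPRQ had 38.2 reads in control 1 and at most 1.58 in any other library.

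On the log2 scale the median SD of the non-receptor phosphatases among lymphomas was 0.48, against 1.37 for receptors, 0.88 for dual-specificity genes and 0.56 for all features tested, although PTPN3, PTPN13 and PTPN14 were all above 2. These differences were not tested. PTPN11 (ENSCAFG00000008894), which encodes SHP-2, a positive regulator of RAS and ERK signalling, was at 939, 881 and 945 reads in controls. It was at 1283, 1268 and 1109 in Boxer lymphomas and at 1223, 1086 and 1312 in other-breed lymphomas. Every lymphoma exceeded every control by a small margin (0.39 ± 0.13, limma adjusted p = 0.0373). Its SD among lymphomas, 0.11 on the log2 scale, was the lowest of the 46 genes. The call ended in 6 of 9 fits that left out 1 library: any control, Boxer lymphoma 2, or other-breed lymphoma 1 or 3 (highest adjusted p = 0.147, without control 2). It ended as well with the replicate number as a block (limma adjusted p = 0.0746) and without a filter (0.065). The same held with Boxer lymphomas alone (0.0723), other-breed lymphomas alone (0.0834) and female dogs alone (0.109). In the rest of the 12 alternatives besides omitted libraries the call held.

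The related PTPN6 encodes SHP-1, an inhibitor of antigen receptor and cytokine signals that is silenced in some human T cell lymphomas. Here it was at 3063 to 3516 reads in controls and at 3315 to 5351 in lymphomas, and the groups overlapped (0.27 ± 0.18, limma adjusted p = 0.254). PTPN1 and PTPN2, which dephosphorylate JAK kinases and STAT factors, changed by -0.03 ± 0.24 and 0.08 ± 0.15 (adjusted p = 0.92 and 0.7). PTPN2 was at 1022 to 1124 reads in controls and at 950 to 1326 in lymphomas. PTPN23 (0.31 ± 0.14) was higher in all 6 lymphomas, at 654 to 819 reads against 554 to 609, and did not pass (adjusted p = 0.109).

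PTPN21 and PTPN4 encode phosphatases with a FERM domain, which links proteins to the membrane and cytoskeleton. PTPN21 (ENSCAFG00000017377) was at 1190, 943 and 859 reads in controls and at 347, 377 and 853 in Boxer lymphomas. Other-breed lymphomas held 332, 360 and 588. All lymphomas were lower, with Boxer lymphoma 3 just under the lowest control (-1.15 ± 0.31, limma adjusted p = 0.0161). The call ended without control 1 (0.0772) or control 2 (0.0558). PTPN4 (ENSCAFG00000004872) was at 307 to 448 reads in controls and 151 to 311 in lymphomas, an overlap at other-breed lymphoma 3 (-0.81 ± 0.26, adjusted p = 0.0361). Its call ended in 5 of 9 fits that left out 1 library (any control, Boxer lymphoma 1 or Boxer lymphoma 2, adjusted p up to 0.137) and at 0.0623 with the replicate number as a block. It ended too with other-breed lymphomas alone (limma adjusted p = 0.115) and without other-breed lymphomas 1 and 2 (0.0521). In the rest of the 12 alternatives it held.

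The other FERM genes, PTPN3, PTPN13 and PTPN14, were lower in other-breed lymphomas 1 and 2 than in the other 4 lymphomas. PTPN13, which can bind the death receptor FAS, was at 342, 58.8 and 203 reads in Boxer lymphomas and 167 in other-breed lymphoma 3, with Boxer lymphoma 2 within the controls. It was at 5.89 and 10.3 in other-breed lymphomas 1 and 2, below the 31.5 to 81.9 of the controls. PTPN3 had no read in other-breed lymphomas 1 and 2, which at their depth allows up to 3.53 and 2.37 normalised reads, and 16.1 to 41.4 in the other 4. PTPN14 was at 2.35 and 0 in that pair and at 9.48 to 42.5 in the rest, against 13.6, 2.48 and 0.926 in controls. Over all lymphomas these genes did not pass (limma adjusted p = 0.242, 0.893 and 0.506 for PTPN3, PTPN13 and PTPN14).

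The PEST phosphatase PTPN22, which works with the kinase CSK to restrain LCK, was at 1022 to 1314 reads in controls. It was at 395, 1157 and 579 in Boxer lymphomas and at 2738, 1334 and 1462 in other-breed lymphomas. The breeds thus lay on either side of the controls, with Boxer lymphoma 2 within them, and the change over all lymphomas was -0.12 ± 0.51 (limma adjusted p = 0.87). It was 0.13 by edgeR. PTPN7, the haematopoietic phosphatase of ERK and p38, was at 1544 to 2876 reads in controls and 705 to 2012 in lymphomas (-0.85 ± 0.37, adjusted p = 0.0997). PTPN9 (-0.23) and PTPN12 (-0.07) did not pass either, and PTPN5 and PTPN20 were below the filter.

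Among dual-specificity genes the typical MAP kinase phosphatases are grouped by where they act and what they act on. Of the 4 nuclear, inducible genes, DUSP1 and DUSP2 fell and DUSP4 and DUSP5 did not pass. DUSP1 (ENSCAFG00000029826), an immediate early gene whose product inactivates p38, JNK and ERK, was at 14606, 13311 and 2745 reads in controls 1 to 3. It was at 1358, 1118 and 647 in Boxer lymphomas and at 204, 297 and 2157 in other-breed lymphomas. The groups did not overlap, but control 3 was nearer to other-breed lymphoma 3 than to the other controls. The log2 fold change was -3.51 ± 0.78 (limma adjusted p = 0.00678). The immediate early gene FOS was likewise lowest in control 3, at 38620, 42460 and 7754 reads in controls 1 to 3, and other-breed lymphoma 3 had the most FOS of the lymphomas, 3181. FOS was lower in lymphomas by 4.46 ± 0.83 on the log2 scale (adjusted p = 0.00302).

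DUSP2 (ENSCAFG00000023317), whose product PAC-1 acts on ERK in activated lymphocytes, did not share the low level of DUSP1 in control 3. It was at 6056, 5341 and 5991 reads in controls, at 816, 1804 and 2419 in Boxer lymphomas and at 932, 1020 and 2798 in other-breed lymphomas. The log2 fold change was -1.99 ± 0.39 (limma adjusted p = 0.00373), and all lymphomas lay below the controls. In contrast to DUSP1, its SD among controls was only 0.10 on the log2 scale.

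DUSP4 and DUSP5, which act on ERK in the nucleus, and DUSP6, which acts on ERK in the cytoplasm, were uneven among lymphomas. DUSP4 was at 102 to 118 reads in controls. It was at 1891 and 845 in Boxer lymphomas 1 and 2, at 217 in other-breed lymphoma 3, and at 57.3, 75.3 and 36.3 in Boxer lymphoma 3 and other-breed lymphomas 1 and 2, below every control. The change over all lymphomas therefore had a wide error (0.80 ± 1.13, limma adjusted p = 0.603).

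DUSP6 was at 1764, 1455 and 971 reads in controls, at 2451, 6117 and 2257 in Boxer lymphomas and at 282, 628 and 2144 in other-breed lymphomas. All Boxer lymphomas lay above the controls, and other-breed lymphomas 1 and 2 lay below them. The change was 0.18 ± 0.80 over all lymphomas (limma adjusted p = 0.879) and 1.25 with Boxer lymphomas alone (0.0408). DUSP5 was at 181 to 306 reads in controls and 194 to 1116 in lymphomas (0.92 ± 0.46, adjusted p = 0.137). It passed without other-breed lymphoma 2 (adjusted p = 0.0295). DUSP7, a further cytoplasmic ERK phosphatase, changed by 0.22 ± 0.35 (adjusted p = 0.653), and DUSP9 had no read in any library.

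**Figure D4:**
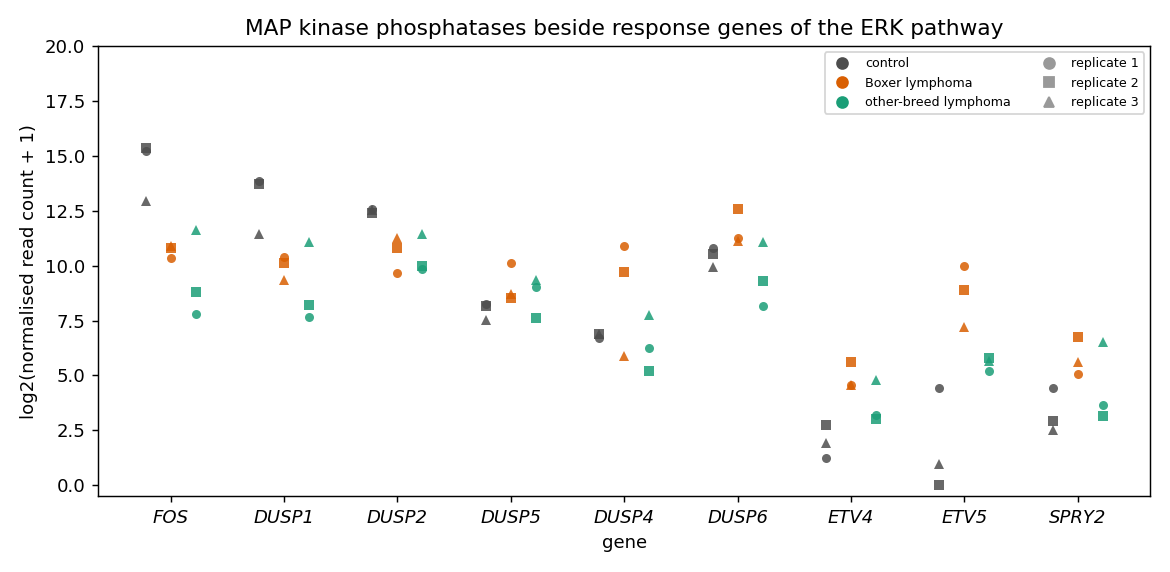
Level of 5 MAP kinase phosphatases and of FOS, ETV4, ETV5 and SPRY2 in each library, as log2(normalised read count + 1). FOS, DUSP1 and DUSP2 are lower in all lymphomas than in all controls, ETV4 and ETV5 are higher in all lymphomas, and DUSP4 and DUSP6 lie on both sides of the controls.

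The JNK and p38 phosphatases moved apart. DUSP16 (ENSCAFG00000013274), which acts chiefly on JNK, was at 2356, 1552 and 1418 reads in controls, at 134, 513 and 549 in Boxer lymphomas and at 464, 985 and 408 in other-breed lymphomas. Every lymphoma was lower (-1.98 ± 0.49, limma adjusted p = 0.0115). The call ended without control 1 (0.0609). DUSP8 (ENSCAFG00000010009) had no read in any control. It was at 22.9, 13.3 and 30.2 in Boxer lymphomas and at 8.24, 40.2 and 9.55 in other-breed lymphomas. From the 137 reads pooled over lymphomas, with 3 reads pooled over controls as the floor, it was at least 22.1-fold higher, a bound that covers counting error only (limma adjusted p = 0.00114). DUSP10 was at 53.1 to 841 reads in lymphomas and 88.9 to 139 in controls, highest in other-breed lymphoma 2 (0.68 ± 0.70, adjusted p = 0.467).

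Of the atypical dual-specificity genes, DUSP3 and DUSP18 rose and the other 6 tested did not pass. DUSP3 (ENSCAFG00000028570), whose small product VHR can dephosphorylate ERK and JNK, was at 9.55, 3.30 and 13.9 reads in controls. It was at 211, 179 and 292 in Boxer lymphomas and at 114, 196 and 213 in other-breed lymphomas. The rise was even, with an SD of 0.44 among lymphomas on the log2 scale, the lowest of the 16 called genes other than PTPN11 and PTPN4. The log2 fold change was 4.47 ± 0.45 (limma adjusted p = 1.15e-04). It was 4.67 for Boxer and 4.27 for other-breed lymphomas against the same controls, and 4.19 among females alone.

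DUSP18 (ENSCAFG00000012837) was at 1.36, 4.13 and 0.926 reads in controls, at 46.7, 38.9 and 66.6 in Boxer lymphomas and at 67.1, 62.3 and 17.0 in other-breed lymphomas (4.02 ± 0.59, limma adjusted p = 8.6e-04). All lymphomas lay above the controls, with other-breed lymphoma 3 the lowest. DUSP22, which can restrain LCK and whose gene is rearranged in some human T cell lymphomas, was at 131, 73.5 and 87.1 in controls. It was at 86.7, 157 and 38.5 in Boxer lymphomas and at 47.1, 29.2 and 36.1 in other-breed lymphomas. It did not pass (-0.78 ± 0.54, adjusted p = 0.282), and with the other-breed lymphomas alone it did (-1.34, adjusted p = 0.047). DUSP11, DUSP12, DUSP14, DUSP19 and DUSP26 ranged from -0.62 to 0.81 and did not pass, while DUSP15, DUSP21 and DUSP27 were below the filter.

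Kinases and regulators that phosphatases act on were read from the same fit. Of 20 MAP kinases and activators tested, 1 was higher, 4 were lower and 15 did not pass, with a median of 0.02. Over all features, the shares beside which this and the following list counts stand are 19.4% higher and 15.7% lower. Kinases that feed ERK and JNK were among the lower ones: BRAF (-1.10 ± 0.20, limma adjusted p = 0.00245), MAP2K7 (-1.04 ± 0.21) and ARAF (-0.49 ± 0.17). MAP2K4, a kinase of JNK and p38, was higher (0.62 ± 0.21, adjusted p = 0.0445). The calls of ARAF and MAP2K4 ended in 13 and 12 of 21 alternative fits.

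Of 14 ERK feedback and response genes tested, 2 were higher, 2 lower and 10 did not pass (19.4% and 15.7% over all features), with a median of -0.21. ETV5, a transcription factor induced by ERK, was at 20.5, 0 and 0.926 reads in controls, at 1005, 469 and 148 in Boxer lymphomas and at 35.3, 55.2 and 49.9 in other-breed lymphomas. All 6 lymphomas were above the controls, and the 3 Boxer lymphomas were above the other breeds (5.33 ± 1.24, limma adjusted p = 0.0084, and 0.0502 without control 2). ETV4 rose by 2.32 ± 0.70 (0.0271, and 0.115 and 0.0876 without control 1 or 3). IER2 fell by 1.35 ± 0.44 (0.0368), a call that ended without any 1 of the controls or without Boxer lymphoma 1. The ERK targets SPRY2 (1.85 ± 0.88) and EGR1 (-1.31 ± 0.50) did not pass.

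Of 17 genes for Src family kinases and their adaptors, 5 were higher and 2 lower (19.4% and 15.7% over all features). Among the higher ones were FGR (4.38 ± 0.55), a kinase of myeloid cells, LYN (3.34 ± 0.69) and SRC (2.84 ± 0.74). SRC lost its call without control 1 (adjusted p = 0.0721) or 3 (0.0514). The macrophage marker sums rose with them (1316 to 21662 reads in lymphomas, 321 to 437 in controls), and the part of macrophages was not tested. The lower ones were ZAP70 (-1.07 ± 0.20) and SIT1 (-1.05 ± 0.20). LCK (-0.54 ± 0.22, limma adjusted p = 0.0806), CSK (-0.66 ± 0.36) and FYN (0.46 ± 0.42) did not pass. Of 8 JAK and STAT genes, the substrates of PTPN1, PTPN2 and PTPN6, 5 were lower and 0 higher (15.7% and 19.4% over all features), with a median of -0.62. They were STAT5B (-1.60 ± 0.24), TYK2 (-1.02 ± 0.18), JAK3 (-0.95 ± 0.15), STAT3 (-0.60 ± 0.14, adjusted p = 0.00836) and STAT5A (-0.63 ± 0.18, adjusted p = 0.0193). The STAT5A call ended without control 1, 2 or 3 (0.0517, 0.0665 and 0.0838).

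Phosphatases of related folds outside the PTPN, PTPR and DUSP names moved in both directions. Of 24 tested, 8 were higher and 7 lower (19.4% and 15.7% over all features), with a median of 0.15. PTP4A3, a phosphatase linked to tumour spread, had no read in any control and was at 223, 475 and 27.1 in Boxer lymphomas and 148, 156 and 138 in other-breed lymphomas. It was at least 200-fold higher on the pooled reads, with a floor of 3 reads over the controls (limma adjusted p = 1.31e-04). This bound is for the pooled lymphomas, of which Boxer lymphoma 3 was far the lowest, and covers counting error only. SSH2, which acts on the actin regulator cofilin, fell from 6933 ± 1484 (SD, n = 3) to 1282 ± 406 (n = 6) reads, a log2 fold change of -2.47 ± 0.27. The related SSH3 rose by 2.46 ± 0.34. CDC25B, an activator of cell cycle kinases, fell from 1706 ± 124 to 237 ± 250 reads (-3.25 ± 0.53), and CDC14A fell by 1.53 ± 0.29. The lipid phosphatases MTMR2 (2.33 ± 0.32) and MTMR6 (0.70 ± 0.14) rose and MTMR3 (-0.72 ± 0.14) fell.

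Between Boxer and other-breed lymphomas, compared without the controls, 0 of 44 phosphatase genes tested passed by limma (lowest adjusted p = 0.881). Over all 15112 features 0.0% were called by limma or edgeR and 0.675% by DESeq2, which called 0 of the 44. At an unadjusted p under 0.05 there were 2 of 44 phosphatase genes (4.55%) and 4.98% of all features. These were PTPN22, lower in Boxer lymphomas by 1.44 ± 0.45 on the log2 scale (unadjusted p = 0.0154), and DUSP6, higher by 2.16 ± 0.75 (0.0235). DUSP7 was next, at 0.87 ± 0.38 (0.0537), with 336, 170 and 278 reads in Boxer lymphomas and 164, 139 and 112 in other-breed lymphomas. These genes and PTPN1 were the 4 of 44 (9.09%) whose breed groups did not overlap, against 10.7% of all features. No difference between the breed groups was thus shown for any phosphatase gene.

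For 53 of the 56 genes an entry was found in the RefSeq gene table of the dog assembly UU_Cfam_GSD_1.0, which is not the build of the files and serves here only for neighbours. The neighbours below were chosen after their values were seen. PTPRB and PTPRR lie next to each other, and their levels diverged: PTPRR was under 10 reads in every lymphoma while PTPRB ranged from 336 to 4550. PTPRK lies between THEMIS and the laminin gene LAMA2. LAMA2 rose in all lymphomas from 0 to 16.4 reads to 905 to 4444. Other-breed lymphoma 1, the sample with 7.06 reads of PTPRK, had 3470 of LAMA2. Some neighbours rose along with a called gene. NCAPG2, beside PTPRN2, rose by 2.24 ± 0.32 (limma adjusted p = 8.18e-04). IFITM10, beside DUSP8, rose by 3.07 ± 0.46 (9.41e-04). MOB2, on the other side of DUSP8, and MECR, beside PTPRU, did not pass (0.195 and 0.106). DUSP16 overlaps CREBL2, which was also lower, at 261 to 322 reads in controls and 51.8 to 234 in lymphomas (-1.26 ± 0.44, limma adjusted p = 0.0449). No source used here gives the strandedness of the libraries, so overlapping genes may share reads. DUSP3 overlaps CFAP97D1, not analysed here. DUSP18 overlaps SLC35E4, which did not pass (0.19 ± 0.61), and OSBP2, which had at most 9.37 reads in any library.

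The phosphatase genes were also described by how evenly they were expressed among lymphomas. The SD on the log2 scale was above 1 for 19 of the 46 genes (41.3%, against 27.0% of all features tested) and below 0.5 for 11 (23.9% against 44.9%). The median SD was 0.91 among lymphomas and 0.23 among controls, against 0.56 and 0.25 over all features. The difference from other features was not tested. PTPRM (2.62), PTPRK (2.52), PTPRF (2.52), PTPN3 (2.39), PTPN13 (2.33), DUSP4 (2.27) and PTPRG (2.27) varied most, and PTPN11, PTPN23 (0.12) and PTPN2 (0.20) least. Several of the largest SDs rest on values near the floor and so depend on the pseudocount. In other-breed lymphomas 1 and 2, PTPN3 was at 0 and 0, PTPRM at 5.89 and 3.15, and PTPRG at 2.35 and 7.89. PTPRF was at 2.35 in other-breed lymphoma 1. DUSP4 was at 36.3 or more in every lymphoma.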

How the data were processed

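Each deposited file gives a signal per gene for 1 library, which the authors deposited after scaling; the values themselves equal read counts divided by a size factor per library. The tools named, per the submitters' processing notes, are DESeq2, HTSeq and TopHat2, without versions, and the build is CanFam3.1. The values were whole multiples of the value of 1 read (100% within 0.01 reads), so whole reads were recovered. Tests used limma 3.58.1 with a mean-variance trend on log2(value + 1), which understates the change of low genes, and Benjamini-Hochberg adjustment over all features tested. Alternatives were edgeR 4.0.16 and DESeq2 1.42.0 on the recovered reads, other pseudocounts (0.5 and 5), no filter or one at 50, and TMM scaling. Further alternatives were omitted libraries, single breeds, female dogs and a replicate block. By edgeR 3100 features were called higher and 2290 lower. The tests were checked on simulated data with known changes. These changes were set in genes with a mean of at least 50, with equal dispersion in both groups. The check thus does not cover genes near the floor or the wider spread among lymphomas. Genes described in full were up to 15 per direction past the threshold, a list of 15 phosphatases known in T cells, and the 3 genes with the smallest p between breeds. Up to 4 genes per direction stand for each pathway list, apart from some that are not reported here. PTPRK, PTPRF, PTPRB, PTPRA, PTPRE, PTPRO, PTPN3, PTPN13, PTPN14, PTPN23, SPRY2, EGR1, LCK, CSK and FYN were singled out after their values were seen. The members and lists were chosen with earlier results of these data known. Sequences were not used here, and positions in the RefSeq gene table of UU_Cfam_GSD_1.0 served only to find neighbouring and overlapping genes.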

Additional observations from a re-analysis of the deposited data

Results flagged for a closer look

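In the 46 tested genes, the 6 lymphomas were examined for a sample far from the rest on the log2 scale, by whether the gap at either end exceeded 0.625 of the whole range. Chance alone marks about 1 group in 20, and 3 genes were marked. PTPRK was at 7.06 normalised reads in other-breed lymphoma 1 and at 415 or more in the other lymphomas. PTPRF was at 2.35 in the same sample and at 96.6 or more in the others. DUSP11, a phosphatase that acts on RNA, was at 437 in Boxer lymphoma 1 and at 747 or more in the others.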

How the results depend on the processing

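The number of phosphatase genes called between lymphomas and controls was 16 and ranged from 9 to 18 when 1 library was left out, and it was 9, 9 and 10 without control 1, 2 or 3. Under the remaining alternatives it stayed within 11 to 22. Between Boxer and other-breed lymphomas 0 were called in every fit. Single genes gave 1592 values under an alternative, of which 1440 kept direction and side of the threshold. Another 95 lost the call, 27 gained it and 30 changed sign. Besides the phosphatase genes, these values cover up to 4 genes per direction of each pathway list, CREBL2 and LAMA2. They also cover the breed comparison of 3 phosphatase genes. Of the 95 lost calls, 13 were of ARAF and 12 of MAP2K4. All sign changes were in genes not called. With the other-breed lymphomas alone, DUSP4 was at -0.41, DUSP6 at -0.90, DUSP7 at -0.22, PTPN12 at 0.078, PTPN13 at -1.15 and PTPN22 at 0.60. With Boxer lymphomas alone, DUSP26 was at -0.12, PTPN1 at 0.25 and PTPN2 at -0.0225. Among females alone, DUSP6 was at -0.40, DUSP7 at -0.022, DUSP14 at 0.0305, PTPN13 at -1.65, PTPN22 at 0.49 and PTPRC at 0.041. Without other-breed lymphomas 1 and 2, PTPN1 was at 0.14 and PTPN9 at 0.11. PTPN1 was at 0.0094 by DESeq2, and PTPN22 was at 0.13 by edgeR and 0.14 by DESeq2. When 1 library was left out, DUSP6 ranged from -0.22 to 0.66, PTPN1 from -0.16 to 0.10, PTPN12 from -0.20 to 0.012, PTPN13 from -0.26 to 0.87 and PTPN22 from -0.39 to 0.16. The cause of these changes was not tested. PTPRM and PTPRG, with few reads in controls, lost their calls with a pseudocount of 5, and depth was not varied.

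Samples share replicate numbers across groups, but the 9 same-numbered pairs deviated together with correlations of only -0.136 to 0.104, of which 1 was over 0.1. The own number correlated best in 5 of 18 combinations of library and other group. The numbers were therefore not taken as pairs. With the replicate number as a block, 13 phosphatase genes were called (7 higher, 6 lower), without PTPN11, PTPRG and PTPN4.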
